A study of Homo sapiens with 6 samples.

Results

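The genes described here encode the core machinery of RNA interference and of microRNAs (miRNAs): the nuclear processing pair DROSHA and DGCR8, the exporter XPO5, DICER1 and its cofactor TARBP2, the 4 Argonautes AGO1, AGO2, AGO3 and AGO4, and the silencing scaffold TNRC6A. These 10 genes were chosen by symbol, as the proteins that process and use a short hairpin RNA (shRNA), out of 62700 genes in the deposited values, and all 10 were among the 14020 genes tested. RNA–Seq of poly(A)-selected RNA was made from SK-Hep-1, a human cell line grown from a liver tumor and named endothelial-derived by the study, in 3 control libraries and 3 libraries of cells with a stable knockdown of the long non-coding RNA RAB30-DT. The knockdown cells carried an shRNA against RAB30-DT in the lentiviral vector pLKO.1 and had been selected with puromycin. The sample titles do not say which of the study's shRNAs against RAB30-DT was used. Control vectors, packaged into lentiviruses like the knockdown vectors, are named in the study's methods. The control libraries are titled as carrying a control shRNA although their genotype label is wild type. From the labels alone, whether both groups express an shRNA therefore cannot be settled. The labels also do not say that the libraries of a group came from separate cultures, so the p-values measure the spread between these libraries only.

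Levels are given as TPM, in which a gene's reads are divided by its transcript length and each library sums to the same total, and values of single libraries follow the replicate numbers. RAB30-DT itself stood at 18.16, 11.51 and 13.91 TPM in the control libraries and at 11.94, 10.85 and 6.5 TPM in those labelled knockdown. The library labelled knockdown replicate 1 lay above control replicate 2, so control and knockdown stand for the labels throughout. Between 20127 and 21675 genes were above 0 TPM in each library, and the number of reads behind them is unknown. Of 6 hepatocyte markers, 1 (SERPINA1) had a mean of at least 1 TPM and 3 (ALB, TTR and HNF4A) were listed at 0 in every library, and the 6 summed to between 19.74 and 25.07 TPM in control and between 28.66 and 38.11 TPM in knockdown libraries. None of 6 endothelial markers reached a mean of 1 TPM, KDR was listed at 0 throughout, and their sum was at most 0.33 TPM in control and 0.38 TPM in knockdown libraries. Of 6 mesenchymal markers, 5 reached it, with sums of 3914 to 4170 TPM and 4459 to 4903 TPM, nearly all of it VIM (3793 to 3997 and 4336 to 4784 TPM). The knockdown libraries were all below the controls for THY1 (76.02 to 98.74 against 101.76 to 148.02 TPM) and TAGLN (0.91 to 1.51 against 1.71 to 5.59 TPM). For VIM, SERPINA1 and VWF (at most 0.36 TPM) they were all above the controls. Of all genes tested, 13.4% had every knockdown library below the controls and 9.89% had every one above. The part of these shifts in the results was not tested. The libraries also differed in how a gene's deviation from its own mean ran with the GC content of its transcript, with Spearman correlations of −0.607, 0.297 and 0.489 in the control and −0.523, 0.0220 and 0.330 in the knockdown libraries, a description over genes within each library.

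A miRNA begins as a hairpin within a long primary transcript. DROSHA, held in place by DGCR8, cuts the hairpin free in the nucleus, XPO5 carries it to the cytoplasm with the GTPase RAN, and DICER1, with TARBP2, trims off the loop. One strand is then loaded into an Argonaute with help from the HSP90 chaperones, and TNRC6 proteins tie the Argonaute to the deadenylases that shorten the target mRNA. An shRNA made from a lentiviral vector joins this route at export and then draws on the same proteins as the cell's own miRNAs. In liver tumor cells the pathway is known for miRNAs that act on growth, hypoxia and the p53 response.

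Mature miRNAs were not measured, since the libraries hold poly(A) RNA. The host transcripts of some of them were, and the mature sequences that lie in the hosts described further on are shown for orientation, from RefSeq on GRCh38.p14, with the seed (bases 2 to 8, which pair with targets) in capitals:
hsa-miR-34a-5p: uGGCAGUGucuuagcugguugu
hsa-miR-210-3p: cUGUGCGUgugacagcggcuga
hsa-miR-221-3p: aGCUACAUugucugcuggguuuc
hsa-miR-222-3p: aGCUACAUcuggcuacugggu
They lie on the minus strand, at chr1:9151735-9151756 in MIR34AHG, at chr11:568112-568133 in MIR210HG, and at chrX:45746180-45746202 and chrX:45747036-45747056 in MIR222HG. miR-221-3p and miR-222-3p share their seed, and the other two have seeds of their own.

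None of the 10 machinery genes differed between knockdown and control at an adjusted p under 0.05 in limma, against 1.04% of the 14020 genes tested (0.371% higher and 0.67% lower). At an unadjusted p under 0.05 there were 2 of the 10, AGO4 (higher) and DGCR8 (lower), against 16.8% of all genes. limma with a weight for each library called 1 of the 10, AGO4, against 23.0% of all genes. The estimates were above 0 for 5 of the 10 and below 0 for the other 5, with a median log2 fold change of −0.06, beside −0.04 over all genes tested, and the median was 0.0013 with quantile normalization and 0.10 with library weights. These fold changes are differences of mean log2(TPM + 1), knockdown minus control, and understate the change of genes with few TPM. The 3 libraries of each group did not overlap for 1 of the 10, DGCR8, against 23.3% of all genes tested (9.89% with the knockdown libraries above, 13.4% below). In bulk RNA, fewer cells with a transcript and less of it per cell cannot be told apart.

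**Figure D1:**
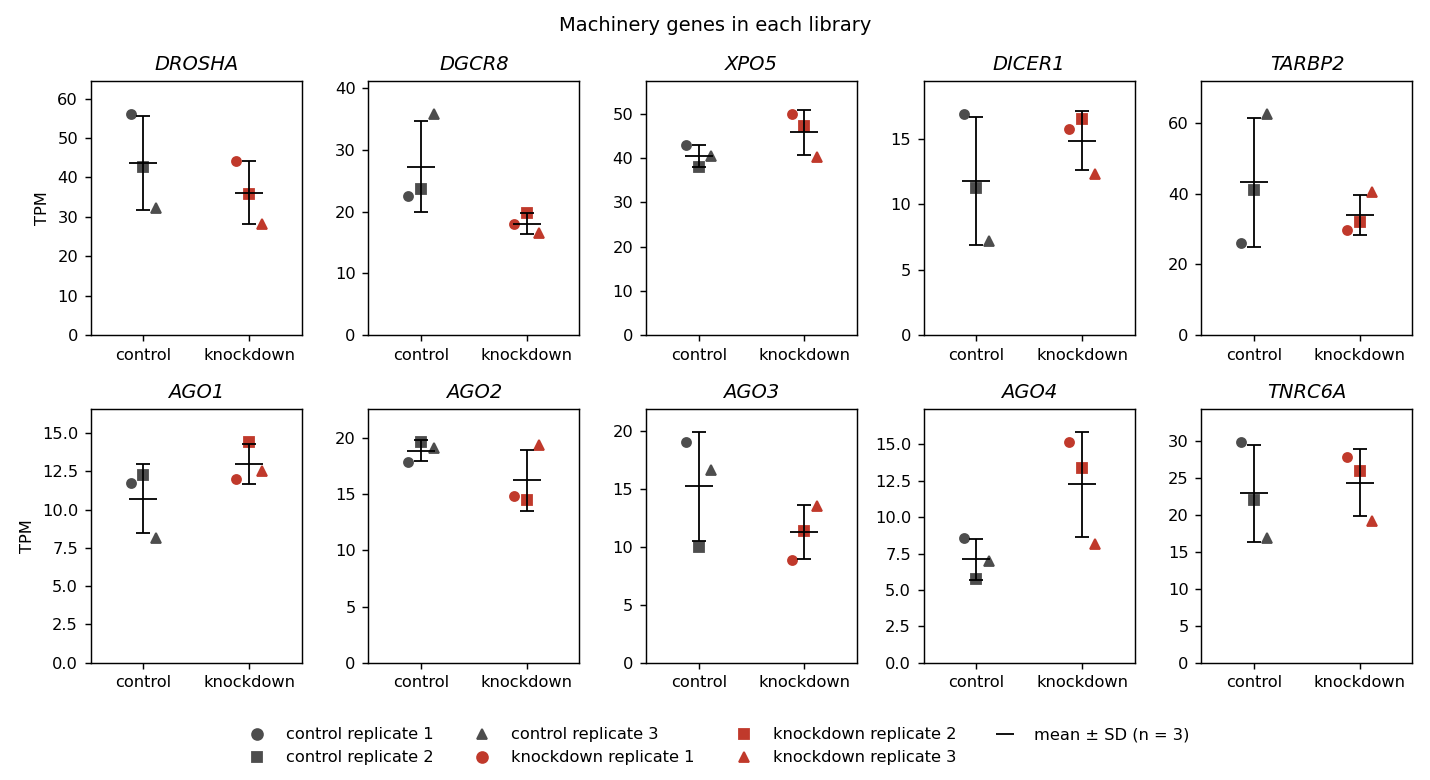
Level in TPM of each machinery gene, each panel with its own axis from 0, in control (grey) and knockdown (red) libraries, with replicate number by symbol and bars for mean ± SD (n = 3). DGCR8 is the 1 gene of the 10 whose groups do not overlap, and the 3 knockdown libraries span 16.49 to 19.77 TPM there.

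By level, the machinery fell in the middle and upper middle of the 14020 genes tested, all of them with a mean of at least 1 TPM. The median tested gene had 15.5 TPM, and the percentage of tested genes with a lower mean than the member ran from 38.7 for AGO4 and 43.6 for AGO1 through 53.2 for AGO2 to 74.5 for DROSHA and 76.2 for XPO5. In control libraries the order of mean TPM was DROSHA (43.7), TARBP2 (43.2), XPO5 (40.4), DGCR8 (27.3), TNRC6A (22.9), AGO2 (18.9), AGO3 (15.3), DICER1 (11.8), AGO1 (10.7) and AGO4 (7.10). Of the neighbours in this order, XPO5 and DGCR8 had ranges without overlap, and every other neighbouring pair overlapped. In knockdown libraries the order was XPO5, DROSHA, TARBP2, TNRC6A, DGCR8, AGO2, DICER1, AGO1, AGO4 and AGO3, where TARBP2 and TNRC6A were the neighbours without overlap. The 3 genes of processing and export that led in control libraries led in knockdown libraries as well, and AGO4, last in control libraries, stood above AGO3 in knockdown libraries, within their spread.

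DROSHA (ENSG00000113360.17, chr5:31400494-31532196, minus strand, hg38) is the RNase III enzyme that makes the first cut. It had 56.05, 42.69 and 32.22 TPM in control and 44.27, 35.87 and 28.31 TPM in knockdown libraries. The groups overlapped widely, with replicate 1 the highest and replicate 3 the lowest in both. In limma, DROSHA had a log2 fold change of −0.25 (standard error 0.25, 95% interval −0.83 to 0.33, adjusted p = 0.646), which was −0.0589 without control replicate 1 and −0.45 without control replicate 3. DGCR8 (ENSG00000128191.17, chr22:20080221-20111877, plus strand), which binds the hairpin's stem and stabilises DROSHA, had 22.48, 23.66 and 35.79 TPM in control and 17.94, 19.77 and 16.49 TPM in knockdown libraries. All 3 knockdown libraries lay under all 3 controls, of which replicate 3 stood well above the rest. Control libraries averaged 27.3 ± 7.37 TPM (SD, n = 3) and knockdown libraries 18.1 ± 1.64 TPM, a log2 fold change of −0.54 (standard error 0.22, 95% interval −1.05 to −0.04) with an unadjusted p of 0.0379 and an adjusted p of 0.266 in limma. The exact permutation test (2-sided, on TPM) gave p = 0.1, the smallest that 3 libraries against 3 allow. Without the library of control replicate 3 the estimate was the weakest of those with 1 library left out, at −0.34, and with the GC trend of each library removed it was −0.52 (adjusted p = 0.0930 from limma). DGCR8 overlaps TRMT2A on the opposite strand, a gene with a mean of 38.6 TPM, and the protocol names no strand marking, so reads of their shared bases cannot be told apart. The ratio of DROSHA to DGCR8 TPM was 2.49, 1.80 and 0.900 in control and 2.47, 1.81 and 1.72 in knockdown libraries, without separation of the groups (exact permutation p = 0.8).

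XPO5 (ENSG00000124571.18, chr6:43522334-43576038, minus strand), the export receptor of hairpin precursors and of shRNAs, had 42.86, 37.91 and 40.40 TPM in control and 49.87, 47.27 and 40.15 TPM in knockdown libraries. Of the knockdown libraries, replicates 1 and 2 were above all controls and replicate 3 was among them. The estimate of 0.17 on the log2 scale (standard error 0.17, 95% interval −0.21 to 0.55, adjusted p = 0.633, limma) had the narrowest interval of the 10. XPO5 also shares bases with an opposite-strand gene, POLR1C, at a mean of 67.0 TPM.

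DICER1 (ENSG00000100697.17, chr14:95086228-95158010, minus strand), the cytoplasmic RNase III, had 16.88, 11.26 and 7.17 TPM in control and 15.75, 16.51 and 12.34 TPM in knockdown libraries. Control replicate 3 was lowest and control replicate 1 highest, so the control libraries spanned all 3 knockdown values. For DICER1 limma gave 0.38 on the log2 scale (standard error 0.30, 95% interval −0.30 to 1.06, adjusted p = 0.557). This lay between 0.09 and 0.65 with 1 library left out. TARBP2 (ENSG00000139546.12, chr12:53500921-53506431, plus strand), the double-stranded RNA-binding partner of DICER1, had 26.06, 41.14 and 62.43 TPM in control and 29.68, 31.88 and 40.47 TPM in knockdown libraries. In both groups it was highest in replicate 3, where DICER1 was lowest, and the groups overlapped. Its log2 fold change of −0.26 (standard error 0.30, 95% interval −0.96 to 0.44, adjusted p = 0.703 from limma) became 0.04 without control replicate 3. The GC content of the canonical transcript was 40.2% for DICER1, among the lower ones of the 10, and 60.1% for TARBP2, the highest, and the part of the libraries' GC trends in these values was not tested. Per library, the ratio of DICER1 to TARBP2 TPM was 0.648, 0.274 and 0.115 in control and 0.531, 0.518 and 0.305 in knockdown libraries (exact permutation p = 0.6), a wide spread with overlap.

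**Figure D2:**
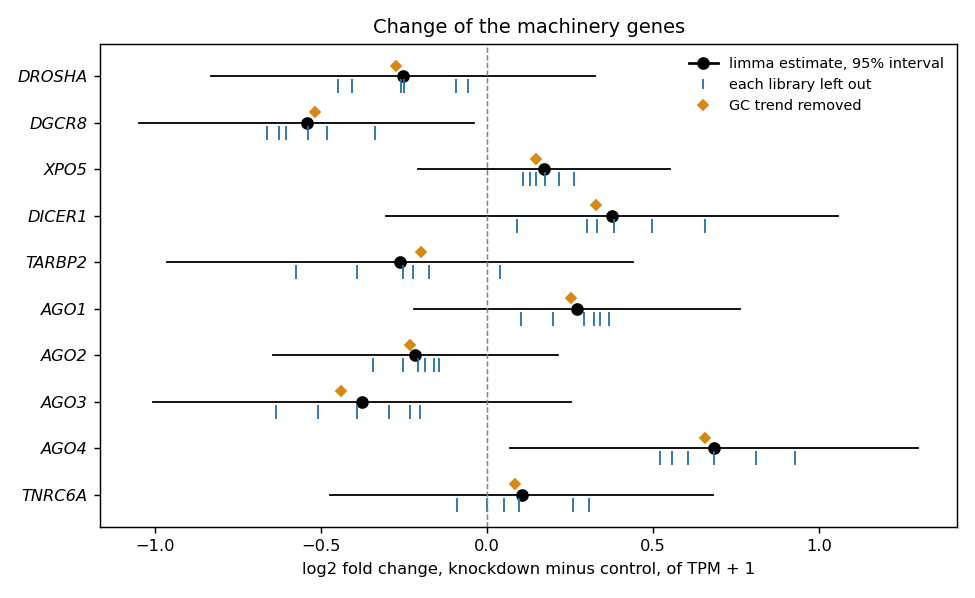
Log2 fold change of TPM + 1, knockdown minus control, of each machinery gene, as the limma estimate with its 95% interval (black), the estimate with each library left out (blue ticks) and the estimate with each library's GC trend removed (orange). The intervals of AGO4 and DGCR8 lie on 1 side of 0 before adjustment, and the ticks of TARBP2 and TNRC6A fall on both sides.

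The Argonautes bind the guide strand. AGO2 alone of the 4 is known for efficient slicing of fully matched targets, the reaction an shRNA relies on, and AGO1, AGO3 and AGO4 are known chiefly for miRNA-guided repression. AGO2 (ENSG00000123908.12) had 17.89, 19.66 and 19.09 TPM in control and 14.83, 14.50 and 19.37 TPM in knockdown libraries. Knockdown replicates 1 and 2 were below all controls and replicate 3 was among them. The resulting log2 fold change of −0.22 had a standard error of 0.19 and a 95% interval of −0.64 to 0.21 (adjusted p = 0.590, limma).

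The other 3 are neighbours on the plus strand of chromosome 1, in the order AGO4 (ENSG00000134698.11, chr1:35808016-35857890), AGO1 (ENSG00000092847.14, chr1:35869808-35930532) and AGO3 (ENSG00000126070.20, chr1:35930718-36072500). AGO4 had 8.56, 5.73 and 7.02 TPM in control and 15.18, 13.39 and 8.19 TPM in knockdown libraries. Knockdown replicates 1 and 2 stood above all controls, and knockdown replicate 3 lay below control replicate 1. Control libraries averaged 7.10 ± 1.42 TPM (SD, n = 3) and knockdown libraries 12.3 ± 3.63 TPM, a log2 fold change of 0.68 (standard error 0.27, 95% interval 0.07 to 1.299) with an unadjusted p of 0.0333 and an adjusted p of 0.253 in limma. The exact permutation test gave p = 0.2. AGO4 was called in 1 of 17 alternative settings, limma's library weights, which called 23.0% of all genes. There the log2 fold change was 0.95 (adjusted p = 0.0114), and over all 18 settings its adjusted p from limma ran from 0.0114 to 0.584. AGO1 had 11.76, 12.26 and 8.16 TPM in control and 12.00, 14.44 and 12.53 TPM in knockdown libraries, with a low control replicate 3 and otherwise close values. With limma this came to 0.27 on the log2 scale (standard error 0.21, 95% interval −0.22 to 0.76, adjusted p = 0.558), or 0.10 without control replicate 3. AGO3 had 19.11, 10.02 and 16.68 TPM in control and 8.90, 11.38 and 13.55 TPM in knockdown libraries. Control replicates 1 and 3 were above all knockdown libraries while control replicate 2 was among them, giving −0.38 on the log2 scale (standard error 0.27, 95% interval −1.01 to 0.25, adjusted p = 0.527, limma). With library weights the estimate for AGO3 was 0.03, and leaving out control replicate 2 or control replicate 1 gave −0.64 and −0.20.

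Because TPM are scaled for length, the 4 Argonautes can be set against each other within a library. Their summed level was 57.32, 47.67 and 50.95 TPM in control and 50.91, 53.71 and 53.64 TPM in knockdown libraries, with means of 52.0 ± 4.91 and 52.8 ± 1.60 TPM (SD, n = 3; exact permutation p = 1). The share of AGO4 in this sum was 14.9%, 12.0% and 13.8% in control and 29.8%, 24.9% and 15.3% in knockdown libraries. All 3 knockdown libraries exceeded all 3 controls, by a narrow margin for knockdown replicate 3. The difference was 9.76 percentage points and had an exact permutation p of 0.1, the smallest this design allows, and 0.3 after Benjamini–Hochberg adjustment over the 4 exact tests, and it lay between 6.52 (without knockdown replicate 1) and 13.8 points (without knockdown replicate 3) with 1 library left out. The share of AGO3 averaged 29.0% ± 6.95 (SD, n = 3) in control and 21.3% ± 3.89 in knockdown libraries, and that of AGO2 36.6% ± 5.07 and 30.7% ± 4.77. For AGO1 it averaged 20.8% ± 4.86 and 24.6% ± 1.98. The groups overlapped for these 3 shares, with exact permutation p of 0.3 for AGO3, 0.2 for AGO2 and 0.3 for AGO1, each with an adjusted value of 0.3. The ratio of AGO4 to AGO3 TPM, looked at after these values had been seen, was 0.448, 0.572 and 0.421 in control and 1.71, 1.18 and 0.604 in knockdown libraries. It was the widest apart in knockdown replicate 1 and close to the controls in knockdown replicate 3.

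**Figure D3:**
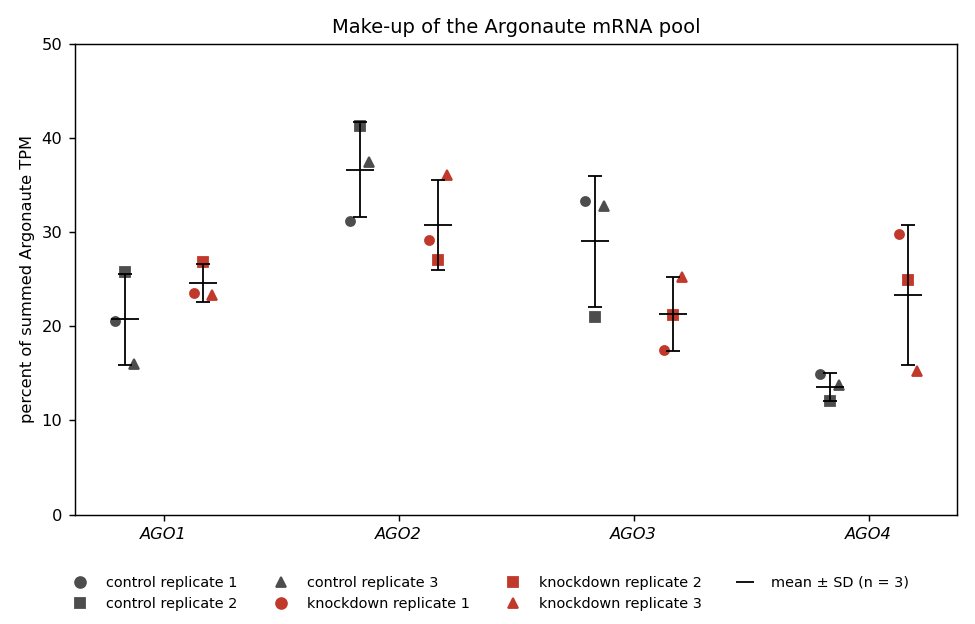
Share of each Argonaute in the summed TPM of the 4, in percent, in each control (grey) and knockdown (red) library, with mean ± SD (n = 3). AGO4 takes 12.0% to 14.9% in control and 15.3% to 29.8% in knockdown libraries, and the other 3 shares overlap.

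TNRC6A (ENSG00000090905.19, chr16:24610209-24827632, plus strand), the GW protein that links Argonautes to the deadenylases, had 29.92, 22.07 and 16.83 TPM in control and 27.91, 25.96 and 19.23 TPM in knockdown libraries. The groups overlapped, again with replicate 1 the highest and replicate 3 the lowest in both. TNRC6A was estimated at 0.10 on the log2 scale (standard error 0.25, 95% interval −0.47 to 0.68, adjusted p = 0.872, limma), or −0.09 without control replicate 3. Its paralogs were expressed at a lower level. TNRC6B averaged 4.53 ± 1.52 TPM in control and 3.45 ± 0.518 TPM in knockdown libraries, and TNRC6C 4.33 ± 0.646 and 3.39 ± 0.318 TPM (SD, n = 3). All TNRC6C values in knockdown libraries (3.05, 3.68 and 3.44 TPM) were below those in control libraries (5.07, 3.88 and 4.04 TPM), as for 13.4% of all genes tested. TNRC6A made up 75.0%, 69.4% and 70.9% of the 3 paralogs' summed TPM in control and 80.9%, 77.4% and 75.2% in knockdown libraries. The exact permutation p was 0.1, the smallest this design allows, in an unplanned test that was not adjusted. For this share the groups did not overlap, although control replicate 1 and knockdown replicate 3 almost met. The summed level of the 3 paralogs was 31.8 ± 8.07 and 31.2 ± 4.92 TPM (SD, n = 3).

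The partners of the machinery were described through lists by role, 171 genes in all, of which 94 were tested. limma called 3 of the 94 (3.19%, beside 1.04% of all genes tested): RAN and PTGES3 lower and MIR34AHG higher in knockdown libraries. At an unadjusted p under 0.05 there were 24 of the 94, beside 16.8% of all genes tested, and 12 of the 24 were from the list described next. The lists were written with earlier results of these data known, so their counts are a description.

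The cofactors that help DROSHA and DGCR8 act on primary transcripts mostly had estimates below 0. Of 17, all tested, limma called none, 12 had an unadjusted p under 0.05 (beside 16.8% of all genes), and limma called 12 with library weights and 7 with the GC trends removed, settings that called 23.0% and 9.17% of all genes. The estimates were below 0 for 15 of 17, beside 53.7% of all genes tested, and in 13 of 17 the knockdown libraries lay entirely under the controls, beside 13.4% of all genes. Their median log2 fold change was −0.53, beside −0.04 over all genes, and ran from −0.62 to −0.38 over the 18 settings. HNRNPA2B1, an RNA-binding protein that reads methylated primary miRNAs, had the lowest p of the list. It had 742.95, 710.68 and 756.94 TPM in control and 488.26, 493.96 and 469.39 TPM in knockdown libraries, a clear gap with little spread on either side. limma's log2 fold change of −0.61 had a standard error of 0.11 and an adjusted p of 0.0525, which ran from 0.00268 to 0.269 over the 18 settings, under the threshold in 5. It shares bases with CBX3 on the opposite strand, which had a mean of 232 TPM. HNRNPA1, the most abundant of the 17 and a binder of the miR-18a hairpin, averaged 2054 ± 229 TPM in control and 1983 ± 137 TPM in knockdown libraries (log2 fold change −0.05, adjusted p = 0.876 from limma). It has 74 annotated pseudogenes by symbol, 1 with a mean of 22.2 TPM, so its reads may be split. Other cofactors are named after their values had been seen. METTL3, the RNA methyltransferase that marks primary miRNAs, had 39.96, 30.98 and 49.92 TPM in control and 24.37, 20.7 and 20.51 TPM in knockdown libraries (log2 fold change −0.83, adjusted p = 0.112 from limma). SRRT, which couples the cap-binding complex to DROSHA, had 112.28, 135.94 and 228.27 TPM and 82.38, 95.43 and 85.46 TPM (−0.79, adjusted p = 0.182). SRSF3, a splicing factor that aids cleavage of primary miRNAs, had 527.84, 477.46 and 694.31 TPM and 350.57, 355.1 and 351.86 TPM (−0.66, adjusted p = 0.0974). In each of these 3 the groups were apart, and control replicate 3 was the highest library. Many of the 17, among them SRSF3 and the HNRNP proteins, also act in splicing and in other steps of RNA metabolism.

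At export and dicing, 1 of 5 partners was called, beside 1.04% of all genes tested. RAN (ENSG00000132341.12, chr12:130872037-130877678, plus strand), the GTPase that gives XPO5 its direction and serves all importins and exportins, had 1533.21, 1119.31 and 1391.91 TPM in control and 717.84, 681.16 and 663.88 TPM in knockdown libraries. All 3 knockdown libraries lay far below all controls. RAN fell by 0.96 on the log2 scale (standard error 0.14, 95% interval −1.28 to −0.64, adjusted p = 0.0285, limma), from 1348 ± 210 TPM to 688 ± 27.6 TPM (SD, n = 3), and the exact permutation p was 0.1. RAN was called in 12 of 18 settings, with log2 fold changes from −1.09 to −0.78. Leaving out single libraries ended the call for control replicate 2 (adjusted p = 0.0647 from limma) and for knockdown replicates 1, 2 and 3 (0.104, 0.153 and 0.142), with estimates of −1.09, −0.99, −0.95 and −0.93. The call was also lost without a filter on low values (0.111) and with quantile normalization (0.0510). The median of the 5 was −0.07, and 0.08 with quantile normalization. Among the others, named after their values had been seen, PRKRA, another double-stranded RNA-binding partner of DICER1, was at 0.05 (adjusted p = 0.927 from limma), and the RNA editors ADAR and ADARB1 were at −0.07 and 0.29, both without a call.

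Among 13 genes of loading and Argonaute regulation, limma called 1 and 5 had an unadjusted p under 0.05 (beside 1.04% and 16.8% of all genes), with a median of −0.19, or −0.31 without control replicate 3. limma called 6 with library weights and 4 with the GC trends removed, all lower, in settings that called 23.0% and 9.17% of all genes. PTGES3 (ENSG00000110958.16, chr12:56663341-56688408, minus strand), the HSP90 cochaperone p23, had 567.49, 441.4 and 343.55 TPM in control and 184.07, 143.35 and 133.53 TPM in knockdown libraries. The groups were apart, with replicate 1 the highest and replicate 3 the lowest in both. The mean went from 451 ± 112 TPM to 154 ± 26.8 TPM (SD, n = 3), a log2 fold change of −1.53 (standard error 0.21, 95% interval −2.02 to −1.04, adjusted p = 0.0260 from limma). It was called in 13 of 18 settings, with log2 fold changes from −1.71 to −1.34. The call was lost without control replicate 2 (adjusted p = 0.134 from limma) and without knockdown replicates 1, 2 and 3 (0.0738, 0.153 and 0.130), with estimates of −1.53, −1.67, −1.49 and −1.44, and without a filter (0.0986). The chaperones themselves were not called: HSP90AB1, the most abundant gene of this list, averaged 1518 and 1360 TPM (log2 fold change −0.16, adjusted p = 0.516 from limma). HSP90AA1, named after its values had been seen, averaged 642 ± 138 TPM and 406 ± 65.6 TPM (−0.65, adjusted p = 0.146).

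**Figure D4:**
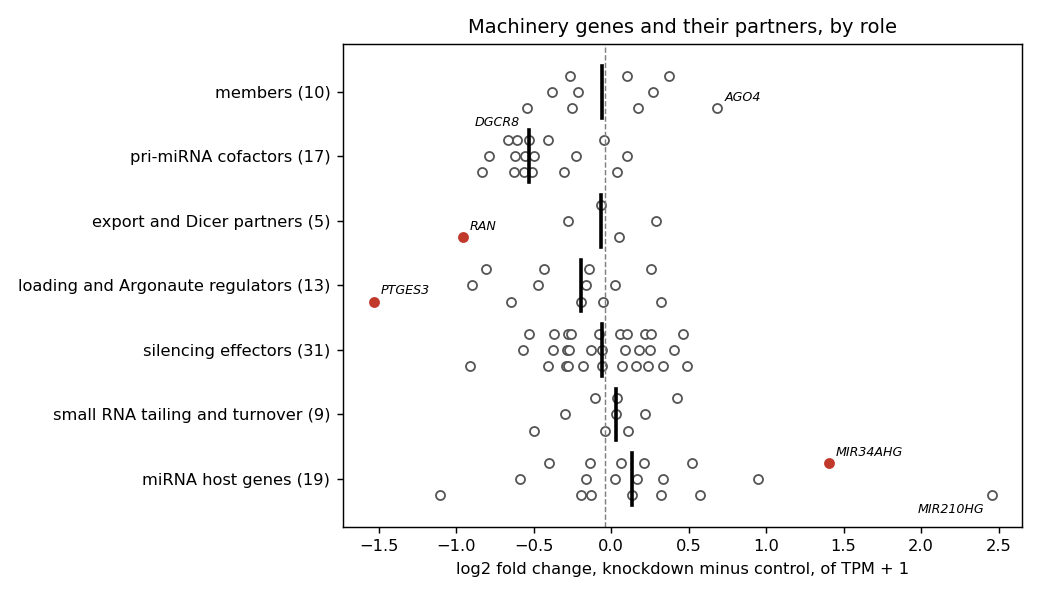
Log2 fold change of TPM + 1, knockdown minus control, of the machinery genes and of the tested genes in each partner list (number in brackets), with called genes in red, the list median as a black bar and the median of all genes tested as a dashed line. The pri-miRNA cofactors have their median at −0.53 and RAN, PTGES3 and MIR34AHG are the called genes.

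Downstream of the Argonautes, none of 31 silencing effectors was called by limma, and 2 had an unadjusted p under 0.05 (beside 16.8% of all genes). limma with library weights called 2 higher and 2 lower, in a setting that called 23.0% of all genes. Of the 31, 14 had estimates above 0 and 17 below, with a median of −0.06 beside −0.04 over all genes and of 0.09 with library weights. With 1 library left out the median ran from −0.17 (without knockdown replicate 2) to 0.14 (without control replicate 1). This list holds the CCR4–NOT and PAN2–PAN3 deadenylases, the decapping proteins and the poly(A)-binding protein. LIMD1, a LIM protein that binds Argonautes, had the lowest p, with 23.19, 29.24 and 26.27 TPM in control and 18.26, 16.82 and 7.77 TPM in knockdown libraries. The groups did not overlap, and knockdown replicate 3 was the farthest down. limma put it at −0.91 on the log2 scale (adjusted p = 0.194), or −0.55 without knockdown replicate 3, and called it with library weights (adjusted p = 0.0317). It overlaps LIMD1-AS1 on the opposite strand, at a mean of 16.4 TPM. PABPC1, the most abundant effector, averaged 2147 ± 597 TPM in control and 2924 ± 496 TPM in knockdown libraries (0.46, adjusted p = 0.304 from limma), with 0.23 under quantile normalization and a call under library weights (0.69, adjusted p = 0.00864). CNOT1, the scaffold of CCR4–NOT, named after its values had been seen, was at 122 and 116 TPM (−0.08).

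Among genes of small RNA tailing and turnover, 9 of 12 were tested and limma called none. It called 1, HENMT1, with library weights or with the GC trends removed (also together with a replicate block). These settings called 23.0%, 9.17% and, with the block, 8.11% of all genes. At an unadjusted p under 0.05 there was 1, HENMT1, a small RNA methyltransferase, with 38.1 ± 3.44 TPM in control and 26.6 ± 0.936 TPM in knockdown libraries (log2 fold change −0.50, adjusted p = 0.181 from limma). XRN2, the most abundant of them and a nuclear exonuclease, was at −0.04 (adjusted p = 0.934 from limma), with a sign that changed between settings. LIN28B, which blocks let-7 maturation, was listed at 0 in every library and LIN28A reached at most 0.07 TPM. Of 9 genes of the germline PIWI branch, none passed the filter, 4 were listed at 0 in every library and the highest value was 1.16 TPM, in PIWIL4. TDRD9 had the highest mean of them, with values from 0.39 to 0.78 TPM.

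Host genes give the primary transcripts of miRNAs, and their level is not that of the mature miRNA. Of 84 annotated genes with a host symbol (MIR with the ending HG), 19 were tested and 32 were listed at 0 in every library. Of the 19, 16 contain at least 1 RefSeq hairpin on the same strand. limma called 1 (MIR34AHG, higher) and 3 had an unadjusted p under 0.05 (beside 1.04% and 16.8% of all genes). The estimates were above 0 for 12 of the 19 and below 0 for 7, from −1.10 to 2.45, with a median log2 fold change of 0.13. The median was not stable, at −0.0104 without control replicate 2, 0.0438 without knockdown replicate 2 and 0.25 with a pseudocount of 0.1.

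MIR34AHG (ENSG00000228526.8, chr1:9148011-9198906, minus strand), the host of miR-34a, whose transcription p53 is known to drive, had 1.78, 1.76 and 1.69 TPM in control and 6.78, 6.96 and 5.18 TPM in knockdown libraries. The 3 controls were almost equal and all 3 knockdown libraries were above them. MIR34AHG rose by 1.40 on the log2 scale (standard error 0.23, 95% interval 0.89 to 1.92, adjusted p = 0.0363, limma), and the mean went from 1.74 ± 0.0473 TPM to 6.31 ± 0.980 TPM (SD, n = 3). It was called in 12 of the 17 settings that tested it, with log2 fold changes from 0.74 (pseudocount of 5) to 1.79 (pseudocount of 0.1) and adjusted p from 0.00131 to 0.204. The call was lost without control replicate 2 (adjusted p = 0.150 from limma) and without knockdown replicates 1, 2 and 3 (0.164, 0.204 and 0.142), with estimates of 1.41, 1.35, 1.34 and 1.52, and without a filter (0.130). LNCTAM34A overlaps it on the opposite strand, with a mean of 1.08 TPM. MIR210HG (ENSG00000247095.5, chr11:565657-568457, minus strand), named after its values had been seen, hosts miR-210, a miRNA known for its induction in hypoxia. It had 1.01, 5.28 and 0.45 TPM in control and 12.17, 15.32 and 13.02 TPM in knockdown libraries. All knockdown libraries were above all controls, of which replicate 2 stood apart from the other two. The log2 fold change of 2.45 (standard error 0.49, 95% interval 1.32 to 3.59) did not pass in limma (adjusted p = 0.0660), and it was 3.08 without control replicate 2 (adjusted p = 0.0387). It was called in 6 of 18 settings, with log2 fold changes from 1.41 to 3.19.

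The other hosts did not pass the test. MIR4435-2HG, the most abundant host, had 120.67, 98.15 and 114.57 TPM in control and 102.98, 95.55 and 103.98 TPM in knockdown libraries (log2 fold change −0.13, adjusted p = 0.689 from limma). MIR222HG, which holds the hairpins of miR-221 and miR-222, had 15.01, 11.37 and 10.01 TPM and 22.21, 19.25 and 12.76 TPM (0.52, adjusted p = 0.345), with knockdown replicate 3 among the controls. MIR17HG, the host of the 6 hairpins of the miR-17 cluster, had 7.11, 8.66 and 2.04 TPM and 9.25, 6.48 and 5.03 TPM (0.32, adjusted p = 0.754 from limma), and the groups overlapped. These 2 were named after their values had been seen.

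**Figure D5:**
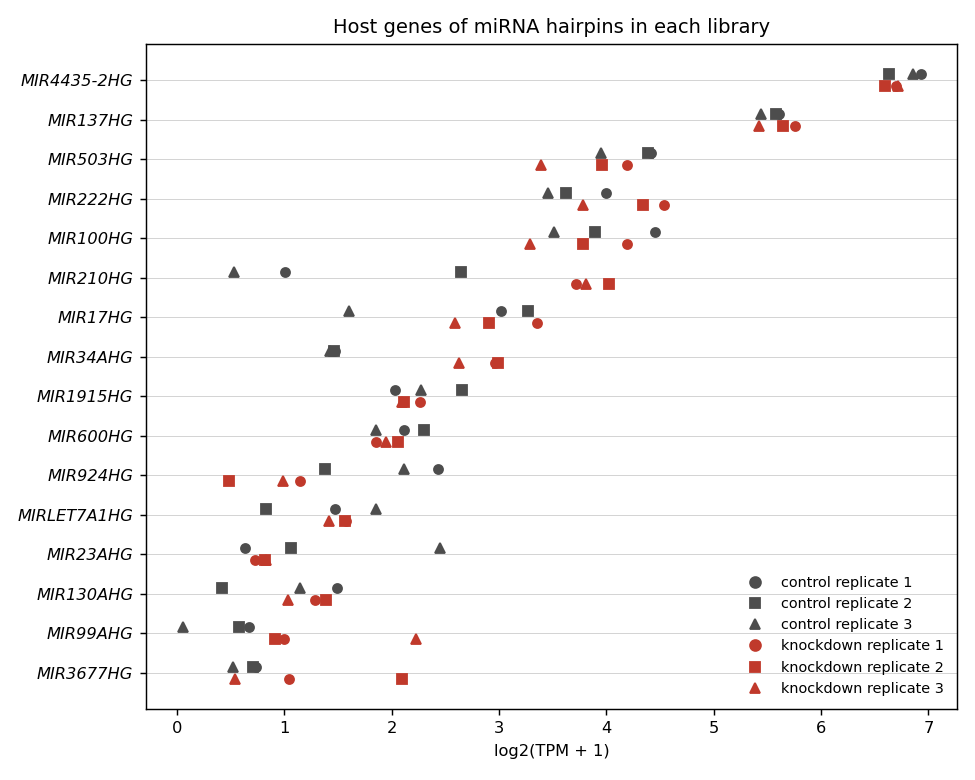
Level as log2(TPM + 1) of the 16 tested host genes that contain a RefSeq hairpin on the same strand, in each control (grey) and knockdown (red) library, ordered by mean level. MIR34AHG, MIR210HG and MIR99AHG have all knockdown libraries above all control libraries and MIR924HG all below. Groups without overlap were seen for 4 of the 19 hosts tested, beside 23.3% of all genes tested. MIR34AHG has 1.69 to 1.78 TPM in control and 5.18 to 6.96 TPM in knockdown libraries.

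Letters in 3′UTRs were looked at last, on the sense strand of the canonical transcript, in 19203 genes whose 3′UTR spans 50 bases or more. The 7-mer complementary to the seed of miR-34a-5p, CACTGCC, was present in 15.9% of these 3′UTRs, and the tested genes with it had a median log2 fold change of −0.06, the same to 2 decimals as those without it. For the 7-mer complementary to the seed of miR-210-3p, ACGCACA, present in 3.08%, the medians were also −0.06 and −0.06. Among the machinery genes, CACTGCC occurred in AGO2, AGO3, AGO4 and XPO5, and ACGCACA in AGO1 and AGO4. Another 7-mer, GAGTGAA, had been picked from a scan of these same libraries' values, so its medians are no independent evidence. It was present in 11.4% of 3′UTRs, and tested genes with it had a median of −0.14, against −0.05 without it. Their 3′UTRs also had a median length of 3327 bases, against 1142 bases without it.

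GAGTGAA occurred in 3 of the 10 machinery genes, AGO2, AGO3 and AGO4, whose 3′UTRs of 11888, 16755 and 4285 bases are among the 4 longest of the 10. It also occurred in both coding partners called, RAN and PTGES3. Of all tested genes with such a 3′UTR, 12.5% held it. Because the 7-mer was picked from these libraries' values, its presence in called genes is no evidence of a link. These windows, on hg38 and each within 1 exon, show it in capitals for AGO3, AGO4 and the 2 called partners.
AGO4: tagccagGAGTGAAgagatgg
AGO3, first site: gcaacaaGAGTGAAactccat
AGO3, second site: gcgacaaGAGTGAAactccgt
RAN: ggcttcgGAGTGAAtgtggca
PTGES3: ggcaaatGAGTGAAaaatgtt
They lie at chr1:35855606-35855626, chr1:36064357-36064377, chr1:36066537-36066557 and chr12:130876072-130876092 on the plus strand and at chr12:56663732-56663752 on the minus strand. Of these genes, RAN and PTGES3 fell in knockdown libraries, AGO3 had an estimate below 0 and AGO4 one above 0. GAGTGAA also occurred in AGO2 (log2 fold change −0.22), HNRNPA2B1 (−0.61), HNRNPA1 (−0.05) and LIMD1 (−0.91). Among machinery genes and partners named by rule, AGO4 was thus the only carrier with an estimate above 0. The 7-mer was picked from these values, so the direction of its carriers is a description. A match describes letters in a window and says nothing of binding.

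By likeness over the 6 libraries, measured as the mean absolute difference in log2(TPM + 1) after centring each gene on its mean, the tested genes nearest to AGO2 were PTP4A3 (0.0344), EPHA4 (0.0423) and NDUFB9 (0.0508). Those nearest to DICER1 were LYRM7 (0.0331), ZNF252P (0.0336) and PTER (0.0441). None of these 6 belongs to the machinery or to its partner lists, and their points share libraries, depth and GC trend.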

How the data were processed

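RNA–Seq covered 6 libraries, 3 control and 3 RAB30-DT knockdown, grouped by the sample titles. The study's methods name fastp (v0.23.2), STAR (v2.7.10b), samtools (v0.1.9) and RSEM (v1.3.0), whereas the submitters' processing notes name HISAT2 (2.0.5) and hg38, so the aligner is uncertain. The authors deposited TPM per gene and library, with 2 decimals. GENCODE Release 45 is named in the methods, but the identifiers were those of Release 44, used here for names, hg38 positions, GC content and 3′UTRs. Reads per library cannot be recovered from TPM, and neither depth nor counting error is known.

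log2(TPM + 1) was fitted with limma 3.58.1 under R 4.3.3 (lmFit, then eBayes with trend, 2-sided, no block) over the 14020 genes that averaged 1 TPM or more. A call needed an adjusted p under 0.05 (Benjamini–Hochberg over all of them). Argonaute shares, the TNRC6A share and ratios used exact permutation tests in Python 3.11.15, and of these only the Argonaute shares were planned. The members, lists and tests were chosen with earlier results of these data known. All machinery genes were named, and from each list the called genes, or else the one with the lowest p, and the one with the highest mean. Others given with an estimate of their own are said to be named after their values were seen.

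Alternatives were a pseudocount of 0.1 or 5, dropping the filter or raising it to 5 TPM, quantile normalization, scaling by the median of ratios, robust eBayes, limma's arrayWeights (library weights, gene-by-gene), a replicate block, removal of each library's loess trend with GC content (span 0.3), the block with that removal, and each library left out. Protein sequences were not used here. miRNA sequences are from RefSeq on GRCh38.p14.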

Additional observations from a re-analysis of the deposited data

How the results depend on the processing

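The absence of a call among the 10 machinery genes held in 16 of 17 alternatives. limma's library weights called 1, AGO4, at a log2 fold change of 0.95, in a setting that called 23.0% of all genes. The estimates changed sign for AGO3 with library weights (0.0262) and, without control replicate 3, for TARBP2 and TNRC6A, which ran from −0.575 to 0.0398 and from −0.0910 to 0.306 with 1 library left out. The count over all genes, 146 (1.04%), was 13 without a filter, 3218 (23.0%) with library weights and 1286 (9.17%) with the GC trends removed. The same count ran from 12 to 489 with 1 library left out: 489 without control replicate 1, 12 without control replicate 2, and 18, 15 and 16 without knockdown replicates 1, 2 and 3. The split of the 146 into 52 higher and 94 lower genes was 60 and 69 with median-of-ratios scaling and 78 and 83 with quantile normalization. The 3 partner calls became 0 without a filter, 28 with library weights and 15 with the GC trends removed, and ran from 0 to 6 with 1 library left out: 6 without control replicate 1, 1 without control replicate 2 and 0 without each knockdown library. Among the partners named by rule, the sign changed for HNRNPA1 (0.0953 with library weights, and −0.102 to 0.0426 with 1 library left out, above 0 without control replicate 3), MIR4435-2HG (0.00723 with quantile normalization) and XRN2 (0.110 with quantile normalization, 0.0685 with library weights, and −0.112 to 0.0806 with 1 library left out, above 0 without control replicate 1 and without knockdown replicate 3). The cause of these shifts was not tested.

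Libraries with the same replicate number deviated together with correlations of 0.410, 0.0359 and 0.279 for numbers 1, 2 and 3. Their correlations with GC content also ran in the same order in both groups. Whether equal numbers are pairs is not stated, and the main fit used no block. With a replicate block, limma called 861 genes, 15 partners (8 of them pri-miRNA cofactors and 4 loading or Argonaute regulators) and no machinery gene, and with the block and the GC trends removed together 1137 genes, 18 partners and no machinery gene. TPM hold no read number, so counting error could not be separated from the spread of 3 libraries a group.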
